A study of Mus musculus with 6 samples.

Results

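The pair of arrays labelled FcRg KO holds whole-lung RNA of C57BL/6 mice with the genotype label FcRg-/-, 1 array after intranasal mouse histamine-releasing factor (HRF, labelled mHRF-His) and 1 after PBS, and makes up 2 of the 6 arrays of the series. Its members were chosen by their labels alone. The other arrays are C57BL/6 wild type (WT) and FceRIa-/- mice (here FceRIa KO), each with 1 HRF and 1 PBS array. Total RNA was labelled with Cy3 and read on 1-colour Agilent arrays that lie together on 1 slide. The labels give no age, dose or time after the challenge, and do not say whether an array holds 1 mouse or several. With 1 array per group, no ratio below can be set against the spread between mice, and precision is limited by the number of arrays.

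HRF is the secreted form of the protein encoded by Tpt1, and it can bind some IgE and IgG antibodies. Fcer1g encodes the FcRg chain, which holds the signalling motif used by the high-affinity IgE receptor on mast cells and basophils and by several activating IgG receptors. In allergic lung inflammation, IL-4 and IL-13 turn airway epithelium towards mucus production and macrophages towards the alternatively activated state, whereas neutrophil chemokines mark another arm of the response.

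Levels are log2 values of the processed spot signal relative to the 75th percentile of the same array, which stands at 0. Genes entered the comparison if the HRF or the PBS array, or both, had the probe well above background, which held for 16595 of 19752 named genes, and 13042 of these were bright, with a mean log2 level over the pair of -3 or more. Of the spots other than controls, 70.9% on the HRF array and 70.3% on the PBS array were well above background, within the range of 67.5% to 79.6% over the 6 arrays. The 75th percentile was 1288 on the HRF array and 1584 on the PBS array, and no spot was saturated. All 15 alveolar type 2 cell genes, markers of lung epithelium, were well above background on both arrays.

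The genes behind the labels were measured first. Fcer1g had log2 levels of 4.33 and 4.16 on the FcRg KO HRF and PBS arrays, against 4.63 and 3.94 in WT and 4.47 and 4.08 in FceRIa KO. The FcRg KO HRF array was thus below both other HRF arrays, and the FcRg KO PBS array above both other PBS arrays, all within 2-fold. The part of the gene that the probe covers, relative to the deletion, is not known here, so this level checks the label only if the probe lies inside the deleted part. Fcer1a, the IgE-binding chain, had -4.36 and -4.68 on the FcRg KO arrays, against -4.17 and -4.46 in WT and -1.15 and -0.89 in FceRIa KO, and Ms4a2, the beta chain of the same receptor, was well above background on none of the 6 arrays. Fcer1a was thus more than 2-fold higher on both arrays labelled FceRIa KO than on every other array. Its probe position relative to the deletion is also unknown. Tpt1 stood at 8.16 and 7.94 on the FcRg KO arrays. The activating IgG receptor gene Fcgr3 stood at 0.59 and 0.49, and the inhibitory Fcgr2b at 0.73 and 0.29.

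The FcRg KO arrays stood apart from the other 4 in B cell genes and some plasma cell genes. Ms4a1, which encodes the B cell antigen CD20, was well above background on neither FcRg KO array and lay between 2.37 and 2.80 on the others. The signalling chain Cd79b of the B cell receptor had 0.76 and 0.78 on the FcRg KO arrays, against 3.75 to 4.28 elsewhere, and the follicle homing receptor Cxcr5 had -4.69 and -4.77, against -0.17 to 0.49. Both FcRg KO arrays were below every other array for these genes, HRF and PBS alike.

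Of the 16 B cell genes, 16 were lower on both FcRg KO arrays than on each of the other 4, and 13 were at least 4-fold lower, where 25 of all 17605 genes above background on some array (0.142%) were, and 1560 (8.86%) were lower by any amount. The summed level of the B cell list, in multiples of the 75th percentile, was 14.3 and 12.3 on the FcRg KO HRF and PBS arrays and 45.9 to 55.0 on the others, and 5 of its 16 genes were well above background on neither FcRg KO array. Of 9 plasma cell genes, 5 were lower on both FcRg KO arrays and 3 at least 4-fold lower. The summed level of the plasma cell list did not stand apart in this way. It was 57.0 and 60.7 on the FcRg KO HRF and PBS arrays and 58.9 to 80.4 on the others. Jchain, which joins antibody chains in plasma cells, had -6.09 on the HRF array, was not well above background in PBS, and lay between -1.10 and 2.31 on the others. Further genes among the 25, named after their values were seen, were the IgM receptor gene Fcmr, the B cell surface gene Ly6d and H2-Ob, which modulates antigen loading in B cells. T cell genes did not share this: Cd3e, of the T cell receptor complex, had 2.11 and 2.29 on the FcRg KO arrays, against 2.001 and 1.69 in WT and 1.87 and 1.52 in FceRIa KO, and 0 of 25 T cell genes and 0 of 17 NK cell genes were lower on both FcRg KO arrays than on all others. In bulk lung, fewer B cells and less RNA per B cell cannot be told apart. The labels name only the FcRg genotype for these arrays, and 1 gene, Arsk, was at least 4-fold higher on both. Because both arrays of the pair are alike here, the B cell list had a median log2 ratio of HRF over PBS of 0.07 over its 11 compared genes, with none 2-fold off. The kinase Syk, which relays Fc and B cell receptor signals, had 1.70 and 1.75 on the FcRg KO arrays, against 2.41 to 2.92 elsewhere. The low-affinity IgE receptor Fcer2a, which B cells carry, had -2.58 and -3.23 on the FcRg KO arrays, against -0.48 to 0.43 elsewhere.

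**Figure D1:**
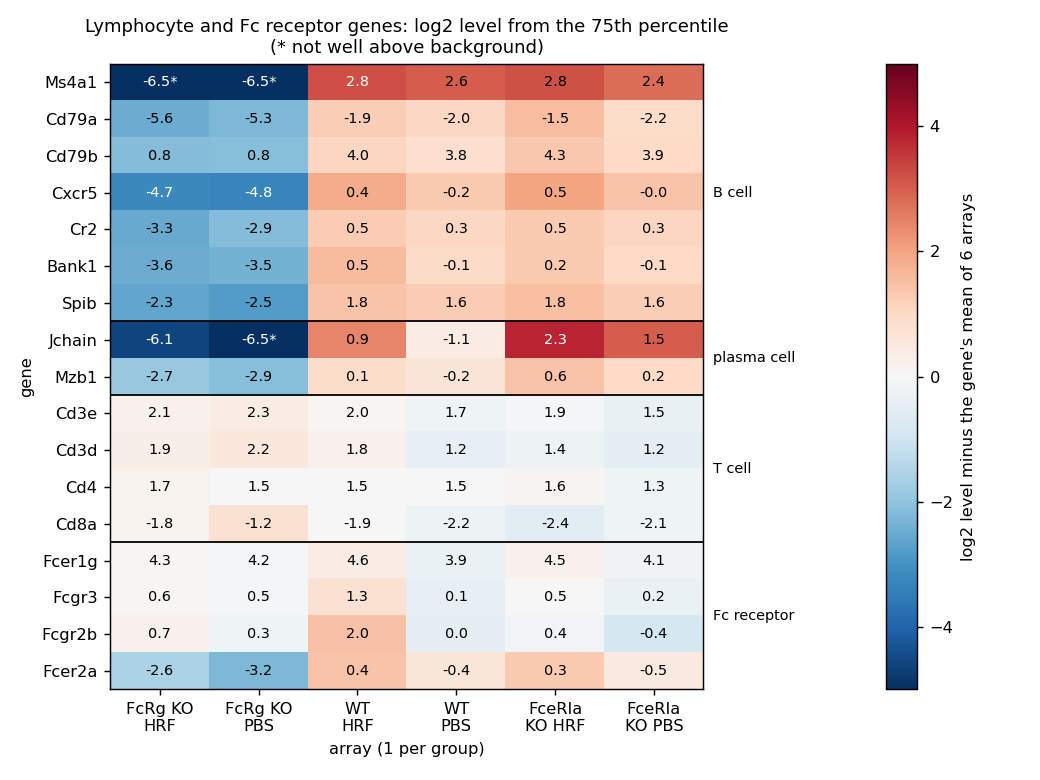
Log2 level from the array's 75th percentile for B cell, plasma cell, T cell and Fc receptor genes (rows) on the 6 arrays (columns, 1 array each). Printed numbers are the levels, a star marks a value not well above background, and colour is the level minus the gene's mean. The 7 B cell genes are low on both FcRg KO arrays, where Cxcr5 stands at -4.69 and -4.77, while Cd3e and Fcer1g are not.

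Across all compared genes the HRF and PBS arrays of the pair were close, with a median log2 ratio of HRF over PBS of -0.0040 and 90% of the ratios between -0.46 and 0.44. Past 2-fold, 31 bright genes (0.238%) were higher and 91 (0.698%) lower on the HRF array. Among the 3553 dim genes, 95 were higher (2.67%) and 108 lower (3.04%). In all, 126 genes were higher (0.759%) and 199 lower (1.2%), so that 38.8% of the calls were higher, or 25.5% after normexp and quantile normalization. For scale, PBS arrays set against each other, with no HRF on either, gave 64 higher (0.487%) and 81 lower (0.616%) bright genes for FcRg KO over WT, 80 (0.613%) and 72 (0.552%) for FcRg KO over FceRIa KO, and 27 (0.206%) and 40 (0.305%) for FceRIa KO over WT. Fewer bright genes were thus 2-fold off between HRF and PBS in this pair than between its PBS array and either other PBS array. More were off than between the WT and FceRIa KO PBS arrays. The comparisons of PBS arrays also cross genotype labels. Those with the FcRg KO PBS array therefore include B cell genes that are low on both FcRg KO arrays and cancel within the pair. How far these genes set the order was not tested. At the threshold itself, the bright genes just inside and just outside were H1f5 at 1.005 and Agr2 at 0.99 on the higher side, and Doc2g at -1.0001 and Rrad at -0.9987 on the lower side. At the limit for bright genes, Nr1i3 lay just inside with a mean log2 level of -2.98 and Slc18a3 just outside at -3.03.

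The PBS array of the pair differed from the other PBS arrays more than those did among themselves. It was at least 2-fold above both others for 39 bright genes and below both for 57, out of 13111. The WT PBS array had 9 and 8 such genes, and the FceRIa KO PBS array 8 and 18. The HRF arrays were set against each other in the same way. The FcRg KO HRF array was above both others for 18 of 13058 bright genes and below both for 114. The WT HRF array had 119 and 11 such genes, and the FceRIa KO HRF array 17 and 24. The HRF array of the pair thus also stood apart. With dim genes included, the FcRg KO PBS array was above both other PBS arrays for 82 of 17434 genes, against 298 for the WT PBS array. Each call was therefore set against all 3 PBS arrays. A call holds against all of them when the HRF array is at least 2-fold off each in the same direction. It rests on its own PBS array when that array is at least 2-fold off both other PBS arrays and the HRF array is within 2-fold of both. Other calls are mixed. Of the 31 bright higher genes, 17 held, 7 rested on the PBS array and 7 were mixed. Of the 91 bright lower genes, 6 held, 22 rested on the PBS array and 63 were mixed. Among these 91, the HRF array lay below both other PBS arrays for 68 genes and the PBS array above both for 84. Over all 91, the median log2 distance beyond them was 0.23 for HRF and 0.68 for PBS. Among the 31 higher genes, the HRF array lay above both other PBS arrays for 20 and the PBS array below both for 13. Both sets were chosen by the ratio within the pair, which by itself moves its HRF and PBS arrays to opposite sides. These counts and distances therefore only describe the calls. In the WT pair, by comparison, 6 of 302 bright higher genes (2.29%, with 45 lower, 0.342%) rested on the WT PBS array, and in the FceRIa KO pair 3 of 114 (0.875%, with 15 lower, 0.115%) rested on theirs. Of the bright lower genes, 22 of 91 rested on the own PBS array in the FcRg KO pair, 3 of 45 in WT and 2 of 15 in FceRIa KO. With dim genes included, these were 48 of 199 lower genes in the FcRg KO pair, 81 of 265 in WT (1.52% of genes lower) and 37 of 72 in FceRIa KO (0.441%), so over all genes the share was lower in the FcRg KO pair than in the others.

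**Figure D2:**
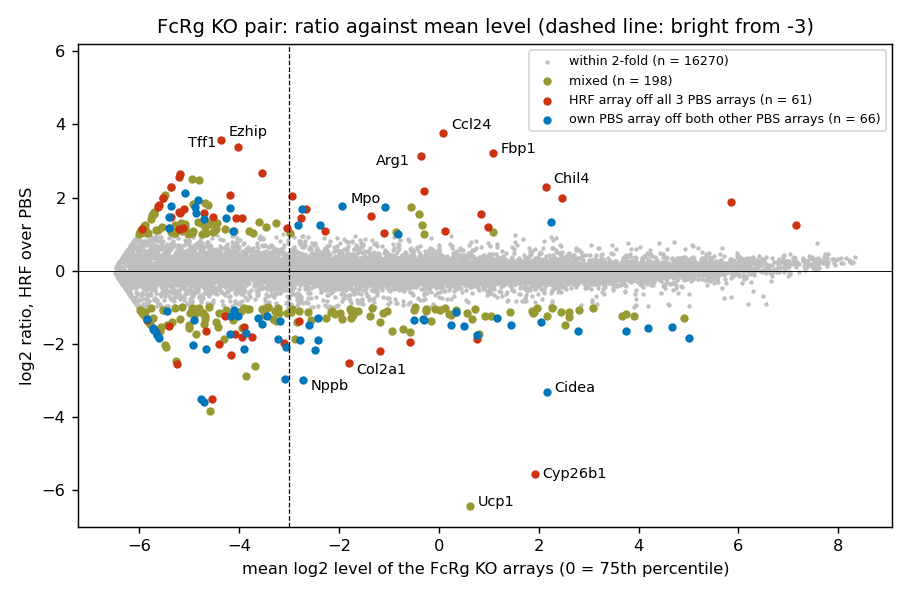
Log2 ratio of HRF over PBS (vertical) against the mean log2 level of the pair (horizontal, 0 is the 75th percentile) for 16595 genes of the FcRg KO pair. Colour gives the class of each call of at least 2-fold, and the dashed line is the limit for bright genes. The highest bright genes, such as Ccl24 at 3.77, hold against all 3 PBS arrays, while 22 bright lower genes, among them Cidea at -3.31, rest on the PBS array.

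Mucous genes of the airway were the group highest on the HRF array. Of 14 goblet and mucous genes compared, 9 were at least 2-fold higher and none lower, where 0.759% of all genes were higher. The median log2 ratio was 1.61, against -0.0040 over all genes, and 8 of the 9 calls held against all PBS arrays. Their summed level was 175.0 on the HRF array and 71.5 on the PBS array. Clca1, a secreted goblet cell protein, had a log2 level of 6.79 on the HRF array and 4.90 on the PBS array (ratio 1.89), against 6.59 and 4.41 in WT and 3.74 and 4.15 in FceRIa KO. The gel-forming airway mucin Muc5ac had -0.60 and -2.09 (1.49), against -0.15 and -1.74 in WT and -2.56 and -2.26 in FceRIa KO. In both cases the FcRg KO HRF array was near the WT HRF array and above all 3 PBS arrays. The anion exchanger Slc26a4 had 3.45 and 1.47 (1.98), and the ion transport regulator Fxyd4 had 0.80 and -1.39 (2.19). The mucus protein Fcgbp had 1.59 and 0.39 (1.20).

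Some mucous genes were near or below the detection limit on the PBS array. The trefoil peptide Tff1, a dim gene, had -2.33 and -5.71 (3.38, and 3.05 on a second probe). Retnlb, a secreted goblet cell protein, was at least 5.96-fold higher on the HRF array and Gcnt3, which branches mucin sugars, at least 3.96-fold, both with a PBS signal not well above background. Itln1, a lectin of mucous cells, had 0.32 and -1.42 (1.73), and its call was mixed because the FceRIa KO PBS array, at 0.53, exceeded the HRF array. The constitutive airway mucin Muc5b did not share the difference, at a log2 ratio of -0.01. Agr2, which folds mucins, stood at 0.99, and the goblet cell factor Spdef at 0.62.

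Macrophage genes of the alternatively activated state were also higher on the HRF array. Of 24 compared, 8 were at least 2-fold higher and 1 lower, against 0.759% and 1.2% of all genes. The median log2 ratio was 0.64, and all 8 higher calls held against the 3 PBS arrays. Ccl24, an eosinophil-attracting chemokine, was 13.6-fold higher, with log2 levels of 1.98 and -1.79 on the HRF and PBS arrays, against 3.09 and -1.995 in WT and -1.29 and -2.51 in FceRIa KO. Arg1, which breaks down arginine, had 1.22 and -1.92 (3.13), against -0.14 and -2.34 in WT and -2.99 and -2.32 in FceRIa KO. Chil4, a chitinase-like protein, had 3.29 and 0.99 (2.30), against 1.75 and 0.42 in WT. The HRF array of the FcRg KO pair was thus the highest of the 6 arrays for Arg1 and Chil4, and second to WT HRF for Ccl24. Retnla, a secreted marker of this state, had 7.79 and 6.53 (1.26), against 7.76 and 6.21 in WT. The ligand Pdcd1lg2 of the inhibitory receptor PD-1 had -2.03 and -3.47 (1.44), and the lectin Cd209e had -1.91 and -3.96 (2.05).

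Fbp1, an enzyme of glucose synthesis, differed from the rest of this list in where it was high. It had log2 levels of 2.70 and -0.52 on the FcRg KO HRF and PBS arrays (3.22), against -2.34 and -2.43 in WT and -2.32 and -2.46 in FceRIa KO. It was thus high on both arrays of the pair and at the same low level on all 4 others, HRF included. The macrophage elastase Mmp12 had -2.20 and -4.87 (2.67), although a second probe gave 0.09. The mannose receptor Mrc1 had 2.38 on both arrays. The scavenger receptor Cd163 went the other way, at least 14.3-fold lower, not well above background on the HRF array and at -2.66 in PBS. On the other PBS arrays Cd163 had -5.24 in WT and -6.11 in FceRIa KO, so its PBS level in the pair was the highest of the 6 arrays.

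The promoters of the higher type 2, macrophage and mucous genes were searched for a palindrome of a form that some STAT proteins bind. It holds TTC and GAA apart by any 4 bases and reads alike on both strands. Of the genes at least 2-fold higher in these lists, 11 had a promoter of 300 bases in the RefSeq table (build GRCm38.p6), and 3 of the 11 held the motif, in 3 of 12 promoters (25%), against 6.95% of all 32851 promoters. The 3 are shown because they are the called genes with a match. They are Cd209e (chr8:3854237-3854536, minus strand), Pdcd1lg2 (chr19:29410669-29410968, plus strand) and Retnla (chr16:48842359-48842658, plus strand), each running from 250 bases before to 50 after the gene's start, with the match in capitals. A match describes these letters only, not a site of binding.
Cd209e: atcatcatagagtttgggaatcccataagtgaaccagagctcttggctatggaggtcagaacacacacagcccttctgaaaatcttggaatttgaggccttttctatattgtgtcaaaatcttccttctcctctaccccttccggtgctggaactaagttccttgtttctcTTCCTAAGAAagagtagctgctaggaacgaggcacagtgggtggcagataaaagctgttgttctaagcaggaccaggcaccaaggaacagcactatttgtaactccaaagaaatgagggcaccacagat
Pdcd1lg2: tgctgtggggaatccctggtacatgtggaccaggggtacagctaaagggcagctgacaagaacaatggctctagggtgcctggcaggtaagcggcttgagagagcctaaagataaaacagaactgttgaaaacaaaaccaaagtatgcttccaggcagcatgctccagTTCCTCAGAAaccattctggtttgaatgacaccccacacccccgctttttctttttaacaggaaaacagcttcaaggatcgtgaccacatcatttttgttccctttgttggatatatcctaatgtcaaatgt
Retnla: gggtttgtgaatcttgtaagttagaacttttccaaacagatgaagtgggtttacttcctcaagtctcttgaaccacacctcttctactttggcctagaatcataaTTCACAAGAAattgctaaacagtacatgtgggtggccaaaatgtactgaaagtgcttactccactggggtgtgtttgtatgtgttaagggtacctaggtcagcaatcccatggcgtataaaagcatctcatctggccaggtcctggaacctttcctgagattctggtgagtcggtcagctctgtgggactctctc

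Type 2 cytokine genes themselves gave few calls. Of 23 type 2 cytokine, chemokine and receptor genes, 2 were at least 2-fold higher and none lower, where 0.759% of all genes were higher. The median log2 ratio was 0.27, and 19 of 23 ratios were above 0. Besides Ccl24, the other was Il13, the cytokine that drives mucus production, which had -4.22 on the HRF array and was not well above background on any PBS array, at least 4.87-fold higher. On the WT HRF array Il13 had -0.82. Il4 had -2.43 and -3.35 (0.92), the eosinophil chemokine Ccl11 -0.18 and -1.04 (0.86) and the T cell chemokine Ccl17 2.70 and 1.86 (0.84), all under 2-fold. Il5, the growth factor of eosinophils, had -4.57 and -4.83 (0.26), against -0.89 and -4.83 in WT. The WT pair had a median of 1.32 on this list and the FceRIa KO pair 0.33.

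The inflammatory arm gave few calls in this pair. None of 13 neutrophil and monocyte chemokines was 2-fold off, with 11 of 13 ratios above 0 and a median log2 ratio of 0.34, against 2.15 in the WT pair and 2.16 in the FceRIa KO pair. Cxcl5, a neutrophil chemokine of airway epithelium, had -2.23 and -3.18 on the FcRg KO HRF and PBS arrays (0.95), against 4.52 and -2.24 in WT and 1.52 and -4.42 in FceRIa KO. Cxcl1 had -3.38 and -2.62 (-0.76), against 2.21 and -1.79 in WT and 1.07 and -3.99 in FceRIa KO. The monocyte chemokine Ccl2 had -0.44 and -0.38 (-0.06), against 4.44 and 0.08 in WT. The FcRg KO HRF array was below both other HRF arrays for these 3 chemokines. It lay within the range of the 3 PBS arrays for Cxcl1 and Ccl2 and at the upper end of it for Cxcl5. Of 24 NF-kB and toll-like response genes, 1 was higher, Saa3, an acute phase protein, with 1.62 and 0.57 (1.05), against 5.15 and 1.58 in WT, and the list's median was -0.05. The inflammatory cytokine list had 0 of 17 genes called and a median of -0.02, and the mature neutrophil list 0 of 15 and -0.03, which became 0.01 after normexp. Among interferon gamma chemokines and GTPases, 1 of 18 was lower, the T cell chemokine Cxcl9, at -1.09. Over all compared genes, 0.759% were higher and 1.2% lower.

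**Figure D3:**
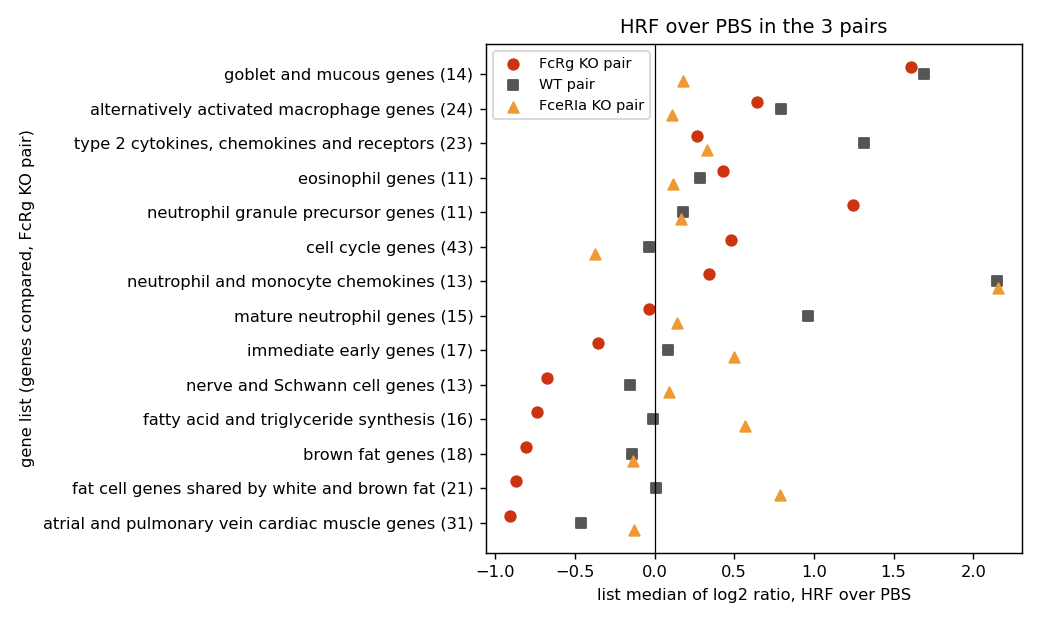
List median of the log2 ratio of HRF over PBS (horizontal) for 14 gene lists (vertical, with the number of genes compared in the FcRg KO pair) in the FcRg KO, WT and FceRIa KO pairs. Goblet genes are high in the FcRg KO (1.61) and WT (1.69) pairs, and chemokines in the WT (2.15) and FceRIa KO (2.16) pairs.

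The higher bright genes were also compared with the WT and FceRIa KO pairs, which share no array with this one. Of the 31, 17 were at least 2-fold higher in the WT pair too and none lower, where 2.06% of all bright genes were higher. In the FceRIa KO pair 6 of the 31 were higher (Ccl24, Cd209e, Itln1, Saa3, Slc26a4 and AA467197), against 0.79% of all. Of the 91 lower genes, 6 were lower and 7 higher in the WT pair, where 0.337% of all were lower, and 2 were lower and 23 higher in the FceRIa KO pair, where 0.0767% were lower. Those 23 included the fat cell genes Ucp1, Adipoq, Fabp4, Plin1 and Cidea.

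Granule genes of developing myeloid cells were higher on the HRF array, and for most of them the PBS array was low against the other PBS arrays. Of 11 neutrophil granule precursor genes, 7 were at least 2-fold higher, against 0.759% of all genes, with a median log2 ratio of 1.25. Of the 7 calls, 5 rested on the PBS array, 1 was mixed and 1 held. Mpo, the myeloperoxidase of granules, had -0.20 and -1.94 on the FcRg KO HRF and PBS arrays (1.75), against -0.36 and -0.02 in WT and 0.55 and 0.57 in FceRIa KO. The protease gene Ctsg had -1.05 and -2.82 (1.76), against -1.36 and -1.64 in WT and -0.47 and -0.56 in FceRIa KO. For both genes the FcRg KO PBS array was the lowest of the 6, and the HRF array lay within the range of the other PBS arrays or near it. Camp, an antimicrobial peptide, had 2.92 and 1.59 (1.33), and Ms4a3, a marker of granulocyte progenitors, -4.00 and -5.75 (1.75). Fcnb, a lectin of immature neutrophils, had -4.67 and -6.13 (1.47). Cebpe, a factor of late granulocyte development, was the 1 that held, with 0.67 and -0.42 (1.09).

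Relative to the mean of the other PBS arrays, the median log2 level of this list was -0.14 on the HRF array and -1.45 on the PBS array. Elane, a protease made at the same stage, had 0.77 and 0.78, with 0.56 and 0.88 on the WT and FceRIa KO PBS arrays. Ltf, a later granule protein, had 2.81 and 3.30, with 3.46 and 3.40 on those arrays. Neither shared the low PBS level.

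Some eosinophil and basophil granule genes were also low on the PBS array, though the lists as a whole were not. Relative to the mean of the other PBS arrays, the eosinophil list had a median of 0.31 for HRF and -0.065 for PBS, and the basophil list -0.088 and -0.095. Of 11 eosinophil genes 3 were at least 2-fold higher, where 0.759% of all genes were. Their median was 0.43, with all 11 ratios above 0. The eosinophil peroxidase gene Epx had -4.00 and -5.41 (1.41), against -3.86 and -4.14 in WT and -3.11 and -3.22 in FceRIa KO. Prg3 had -4.06 and -5.65 (1.58) and rested on the PBS array as Epx did. Prg2, the major basic protein, had 0.38 and -1.18 (1.56), against -0.26 and -0.55 in WT and 0.82 and 0.69 in FceRIa KO, and its call was mixed. Of 7 basophil genes compared, 1 was 2-fold higher, against 0.759% of all genes, with a median ratio of 0.31. It was Mcpt8, a basophil protease, which had -4.02 and -6.13 (2.11), against -3.91 and -4.17 in WT and -3.63 and -3.69 in FceRIa KO. The HRF array was within the range of the other arrays for Epx, Prg2 and Mcpt8. Among the surface markers on the eosinophil list, Ccr3 had -0.66 and -1.02, against -2.49 on the WT PBS array, and Siglecf had 1.37 and 1.22. Siglecf is also on the alveolar macrophage list, so its level does not single out eosinophils. Outside these lists, the red cell antigen gene Rhd (1.24), the methyltransferase gene N6amt1 (1.68) and the growth factor gene Nrg1 (1.02) also rested on a low PBS level, and so did Gm4532 (1.24), although its second probe gave 0.30.

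Fat genes were lower on the HRF array, and many were high on the PBS array. Of 18 brown fat genes, 6 were at least 2-fold lower and none higher, where 1.2% of all genes were lower. The median log2 ratio was -0.81, with 18 of 18 ratios below 0. Of the 6 calls, 3 rested on the PBS array, 3 were mixed and none held. Ucp1, which makes brown fat produce heat, had -2.59 and 3.85 on the FcRg KO HRF and PBS arrays (-6.44), against -0.78 and -0.62 in WT and 0.84 and -1.93 in FceRIa KO. Its PBS level was the highest of the 6 arrays and its HRF level the lowest. Cidea, a lipid droplet protein, had 0.51 and 3.82 (-3.31), against 1.67 and 0.85 in WT and 1.69 and 0.58 in FceRIa KO. Elovl3, which elongates fatty acids in brown fat, had -2.90 on the PBS array and was not well above background on any of the other 5 arrays, at least 12.1-fold lower on the HRF array. Cox8b, a respiratory chain subunit, had 2.93 and 4.58 (-1.65), with 3.40 and 3.08 on the WT and FceRIa KO PBS arrays. Prdm16, a factor that fixes brown fat identity, had -0.01 and 0.08.

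Of 21 genes shared by white and brown fat, 8 were at least 2-fold lower, against 1.2% of all genes, with a median of -0.87. Of the 8 calls, 3 rested on the PBS array, 4 were mixed and 1 held. The lipid droplet coat gene Plin1 had -0.26 and 1.26 (-1.52), against 0.27 and 0.16 in WT and 1.20 and 0.01 in FceRIa KO. The fat hormone gene Adipoq had 1.98 and 3.25 (-1.27), against 2.50 and 2.64 in WT and 3.50 and 2.15 in FceRIa KO. The FceRIa KO HRF array was thus within 2-fold of the FcRg KO PBS array for both. Pck1, which makes glycerol and glucose precursors, was the 1 that held, with -0.16 and 1.70 (-1.85), against 0.98 on the WT PBS and 0.86 on the FceRIa KO PBS array. Its level on the WT HRF array was also low, at -0.46. Of 16 genes of fatty acid and triglyceride synthesis, 5 were lower, against 1.2% of all genes, with a median of -0.74. Thrsp, a regulator of fat synthesis, had 1.97 and 3.61 (-1.65) and Elovl6 -0.22 and 0.91 (-1.14), both resting on the PBS array. The glycerol phosphate enzyme Gpd1 (-1.55), the outer mitochondrial membrane protein Tspo (-1.54) and the kinase Pdk4 (-1.76), which limits glucose oxidation, did so too.

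Against the mean of the other PBS arrays, the median of the brown fat list was -0.28 for the FcRg KO HRF array and 0.50 for its PBS array. The shared fat list had -0.22 for HRF and 0.53 for PBS, and the synthesis list 0.028 for HRF and 0.68 for PBS. The summed level of the brown fat list was 38.9 on the FcRg KO HRF array and 110.2 on its PBS array, and 44.1 to 53.7 on the other 4 arrays. That of the shared fat list was 145.8 and 249.8 on the FcRg KO HRF and PBS arrays, and 152.2 to 291.2 on the others. Of the 18 brown fat genes, 16 were well above background on the HRF array and 18 on the PBS array. The part of fat tissue in the RNA of each array in these ratios was not tested.

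Heart muscle genes, which the lung expresses in the walls of its veins, were lower together. Of 31 atrial and pulmonary vein genes, 11 were at least 2-fold lower, where 1.2% of all genes were. The median log2 ratio was -0.91, and 31 of 31 ratios were below 0. Of the 11 calls, 2 rested on the PBS array, 9 were mixed and none held. The natriuretic peptide gene Nppa had 4.09 and 5.93 (-1.83), against 5.05 and 4.89 in WT and 4.83 and 4.74 in FceRIa KO. Nppb had -4.21 and -1.22 (-2.998), against -2.52 and -3.34 in WT and -3.33 and -3.71 in FceRIa KO. For both genes the PBS array was the highest of the 6 and the HRF array the lowest. The calcium pump regulator Pln had -1.41 and 0.25 (-1.67), with -0.74 and -0.54 on the WT and FceRIa KO PBS arrays. The sarcomere gene Myh6, under 2-fold, had 6.09 and 7.01 (-0.92), against 6.24 and 6.79 in WT. Against the other PBS arrays, the median of the whole list was -0.36 for HRF and 0.59 for PBS. The list's summed level was 341.7 on the HRF array and 641.2 on the PBS array, with 354.6 to 470.4 on the others. The part of heart or vein tissue in the RNA of each array was not tested. The list's median ratio was also below 0 in the WT pair (-0.46) and the FceRIa KO pair (-0.13).

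Nerve and Schwann cell genes followed, with 4 of 13 at least 2-fold lower, against 1.2% of all genes. Their median was -0.68, with 13 of 13 ratios below 0. Dbh, which makes noradrenaline, had -3.55 and -1.39 (-2.17), against -3.36 and -3.59 in WT and -3.96 and -3.45 in FceRIa KO. It rested on the PBS array. Nefl, a neurofilament, was at least 5.54-fold lower, and its call was mixed. The vesicle protein gene Syt10 (-1.88) and the enzyme gene Acsm3 (-1.90) also rested on the PBS array. Smooth muscle genes had a median of -0.39 with 14 of 14 ratios below 0 and none 2-fold off, and skeletal muscle genes a median of -0.32 with 0 of 12.

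**Figure D4:**
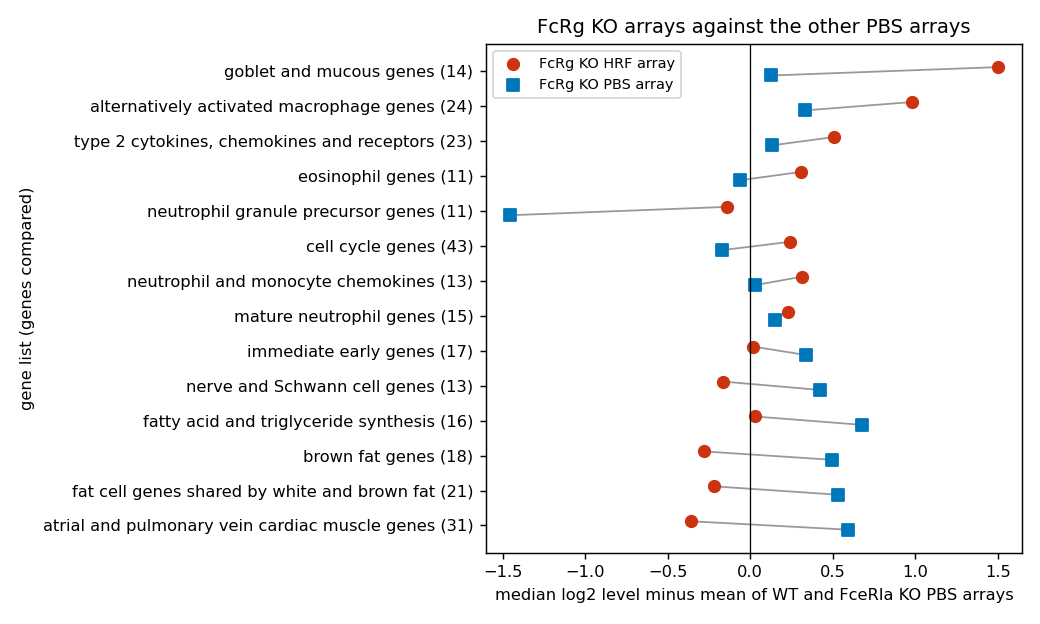
List median of the log2 level minus the mean of the WT and FceRIa KO PBS arrays (horizontal) for 14 gene lists (vertical, with the number of genes compared), for the FcRg KO HRF array (circles) and PBS array (squares). Goblet genes stand at 1.5 (HRF) and 0.13 (PBS), neutrophil granule precursor genes at -0.14 and -1.45, and cardiac genes at -0.36 and 0.59.

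A small set of genes was low on the HRF array against all 3 PBS arrays. The 6 bright ones were Cyp26b1, Col2a1, Krt5, Krt15, Pck1 and Comp. Cyp26b1, which degrades retinoic acid, had -0.86 and 4.71 on the FcRg KO HRF and PBS arrays (-5.57), against 2.66 and 1.33 in WT and 1.87 and 4.79 in FceRIa KO. It was therefore lowest on the FcRg KO HRF array, and the PBS arrays themselves ranged from 1.33 to 4.79. Lrat, which stores retinol as esters, ranked the PBS arrays in the same way, with -0.06 and 1.67 (-1.73), against 1.58 and 0.11 in WT and 0.73 and 1.87 in FceRIa KO.

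Cartilage genes were part of this set. The cartilage collagen gene Col2a1 had -3.06 and -0.54 (-2.52), against -0.99 and -0.11 in WT and -1.20 and -1.13 in FceRIa KO. Comp, a cartilage matrix protein, had -3.50 and -2.11 (-1.39), and the other 4 arrays lay between -2.48 and -2.39. The dim gene Ucma, made by cartilage cells, had -5.31 and -3.01 (-2.30), with -3.29 to -2.87 elsewhere. The FcRg KO HRF array was the single low array for each. Further cartilage genes were looked up after these values were seen. Of 11 in all, 10 had ratios below 0 and 7 were at least 2-fold lower, where 1.2% of all genes were. The 11 include Col2a1, Comp and Ucma, whose values were seen first, so these counts only describe the genes. Col9a1, Col11a1 and Cnmd stood at the detection limit of the HRF array, -6.51. The ratio was -1.9995 for Snorc, -0.95 for the matrix gene Acan, -0.22 for Hapln1 and 0.28 for the cartilage factor Sox9. Keratins of basal epithelial cells were mixed, with 2 of 4 holding against all PBS arrays. Krt15 had -1.55 and 0.40 (-1.95), against -0.49 and 0.90 in WT and 0.19 and 0.19 in FceRIa KO. Krt5 had -2.28 and -0.08 (-2.20), but a second probe gave 0.17. The dim keratin gene Krt17 had -4.97 and -2.37 (-2.61), with -3.10 on the WT PBS and -4.14 on the FceRIa KO PBS array, and was mixed. Krt14 was not low, with -3.88 and -3.48 (-0.40), and -3.80 and -3.96 on those arrays, and Trp63, a factor of basal cells, had 2.04 and 2.05, with a second probe at -0.62. The part of airway wall in the RNA of this array was not tested.

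**Figure D5:**
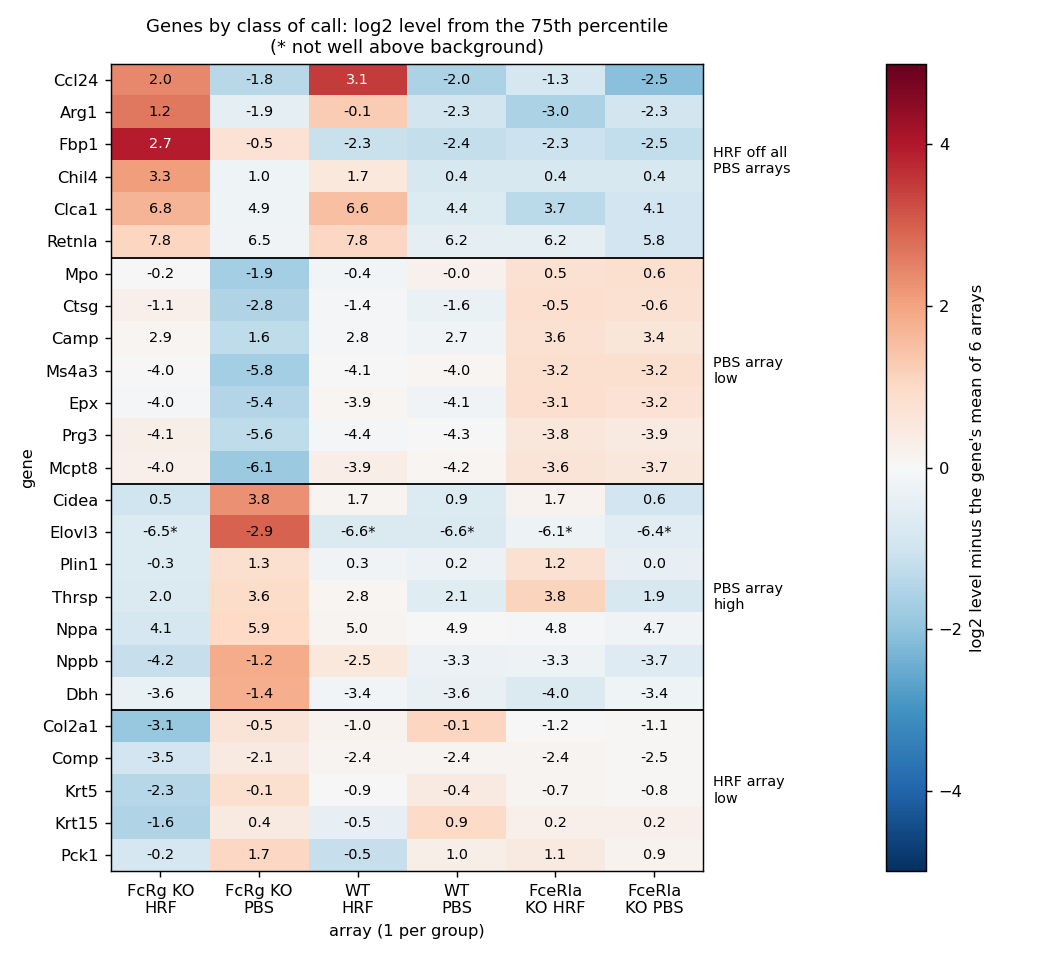
Log2 level from the array's 75th percentile for genes of 4 kinds of call (rows) on the 6 arrays (columns, 1 array each). Printed numbers are the levels, a star marks a value not well above background, and colour is the level minus the gene's mean. The 6 top genes are highest on the FcRg KO or WT HRF array, Mpo and Mcpt8 are low on the FcRg KO PBS array alone, Cidea and Dbh are high there, and Col2a1 and Comp are low on the FcRg KO HRF array.

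Cell cycle genes shifted together by small amounts. Of 43 compared, 41 had ratios above 0, with a median log2 ratio of 0.48, and 1 was 2-fold off, the dim gene Cenpf, at least 2.29-fold lower with a signal not well above background on the HRF array. Mki67, a marker of dividing cells, had 1.497 and 0.83 (0.66), against 1.15 and 1.19 in WT and 0.74 and 1.40 in FceRIa KO. Top2a, which untangles DNA, had -1.33 and -1.99 (0.66), against -1.53 and -1.38 in WT and -2.14 and -1.62 in FceRIa KO. Against the other PBS arrays the list had a median of 0.24 for HRF and -0.17 for PBS. The medians were -0.04 in the WT pair and -0.37 in the FceRIa KO pair.

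The CCAAT box, common in promoters of mitotic genes, was searched on both strands (as CCAAT or ATTGG). It was present in 27 of the 37 cell cycle genes with a promoter in the RefSeq table, in 28 of 38 promoters (73.7%), against 37.4% of all 32851 promoters. The promoters of the 2 genes with a match and the highest ratios are shown. They belong to the mitotic motor Cenpe (chr3:135212313-135212612, plus strand), at 0.89, and the mitotic kinase Cdk1 (chr10:69352863-69353162, minus strand), at 0.86, whose other probes gave ratios down to -0.0023. Capitals mark the box.
Cenpe: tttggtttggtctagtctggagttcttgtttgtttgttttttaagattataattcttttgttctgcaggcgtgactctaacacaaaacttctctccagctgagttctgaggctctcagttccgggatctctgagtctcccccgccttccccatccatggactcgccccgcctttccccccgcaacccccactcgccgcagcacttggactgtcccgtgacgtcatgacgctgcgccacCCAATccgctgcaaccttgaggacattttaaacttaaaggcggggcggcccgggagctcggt
Cdk1: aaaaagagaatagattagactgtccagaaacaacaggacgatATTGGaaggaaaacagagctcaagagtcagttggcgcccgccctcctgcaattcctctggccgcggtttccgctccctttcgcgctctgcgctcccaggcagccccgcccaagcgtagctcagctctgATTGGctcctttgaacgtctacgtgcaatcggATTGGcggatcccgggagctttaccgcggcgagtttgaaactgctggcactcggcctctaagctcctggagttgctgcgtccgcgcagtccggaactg

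Immediate early genes went the other way, with 2 of 17 lower, against 1.2% of all genes, and a median of -0.36. The growth response factor Fos had 0.71 and 2.19 (-1.49), against 1.18 and 1.09 in WT and 0.67 and 0.20 in FceRIa KO, and rested on the PBS array. Egr1 had 1.78 and 3.27 (-1.49), against 2.90 and 2.52 in WT and 2.18 and 1.40 in FceRIa KO, and was mixed. In both, the PBS array was the highest of the 6.

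Dim genes passed 2-fold at a higher share than bright ones, and for several of them a second probe did not. The dim genes with the highest ratios measured on both arrays were Ezhip (3.58), an inhibitor of a histone methyltransferase complex, and Tff1, followed by Mmp12, the peptide receptor Rxfp3 (2.51, second probe 0.14), Oxct2b (2.47, second probe -0.0023) and Mcpt8. Ezhip had -2.56 on the HRF array and at most -5.52 on the others. Rxfp3, Oxct2b and Vmn1r197, a pheromone receptor gene at least 4.87-fold higher, had their highest level on the WT PBS array, so that the HRF level in this pair was within the range of PBS arrays. The odorant receptor gene Olfr13 was at least 6.204-fold higher and was not well above background on the 5 other arrays. On the lower side, Afm, a vitamin E carrier made by liver, had -6.30 and -2.79 (-3.51), with -3.31 to -2.08 on the others, and held. The glycogen synthase gene Gys2 had -4.55 and -1.59 (-2.96), against -2.52 and -4.76 in WT, and rested on the PBS array, as did Igsf21 (-2.14) and Triml1, at least 11.3-fold lower. Chrdl2 (-2.88), a BMP inhibitor, was mixed. In all 60 of the 325 calls involved an array on which the probe was not well above background.

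Of the 53 gene lists with at least 3 compared genes, 25 had no gene 2-fold off, with medians between -0.39 and 0.34. They included mature neutrophil, dendritic cell, NK cell, alveolar type 2, club and ciliated cell, endothelial and fibroblast genes. Among Fc receptor and signalling genes 1 of 17 was called, the dim gene Fcrlb at 1.14, and the median was 0.16. Of 9 mast cell genes, the protease Mcpt4 was lower (-1.24) and the dim Mcpt2 at least 2.22-fold higher. Over all compared genes, 1.2% were lower and 0.759% higher.

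Whether the HRF response of this pair differed from that shared by the other 2 pairs was tested with limma over all 6 arrays, with 1 residual degree of freedom. None of 16593 genes passed an adjusted p of 0.05 in either direction, 1008 had an unadjusted p under 0.05, and the lowest adjusted p was 0.51. The counts were 85 higher and 334 lower with scaling on the array median, where limma's estimated prior degrees of freedom were 35.3 in place of 2.41, and 1 and 6 after normexp. The lowest unadjusted p were those of Gys2 (difference of log2 ratios -5.20, SE 0.18, adjusted p = 0.51 with limma) and Cidea (-4.27, SE 0.22, adjusted p = 0.519 with limma). The term is the same whether the HRF or the PBS array of the pair stands apart, and its spread is not that between mice. Each gene's residual comes from the difference between the WT and FceRIa KO responses. Genes on which these pairs differ, such as Arg1 (SE 1.36), therefore have a large SE. A lack of genes past the threshold does not show that the responses are alike.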

How the data were processed

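Whole-lung RNA of 6 groups was measured on 1 array each. The deposited scanner files hold spot intensity values that the authors obtained with the scanner's Feature Extraction software (version 10.7.3.1), as the file headers state: a processed signal, already background-corrected, a median signal, a background signal, and well-above-background, saturation and outlier flags. A deposited value table holds log2 values whose making is not given in the sources used here, with unknown centring. Against the scanner values, its HRF minus PBS differences across genes had r = 0.996 and slope 1.00, which settles its direction and log2 scale, and its column medians were 0 on both arrays of the pair.

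Control and outlier spots were left out, spots of a probe averaged, and log2 of the 75th percentile subtracted per array. Probes not well above background on an array were set to the higher of their own signal and the lowest signal well above background there, so such ratios are bounds, written "at least". Of 55681 probes, 26056 were named through their RefSeq accession (GRCm38.p6 table), giving 19752 genes, and the brightest probe stood for the 5270 genes with several. Calls are ratios of at least 2-fold, without a test. The difference of response was tested with limma 3.58.1 (R 4.3.3; genotype, challenge and an FcRg KO by challenge term, Benjamini-Hochberg), after a check on simulated data. Python 3.11.15, numpy 2.4.6, pandas 2.3.3 and matplotlib 3.10.9 did the rest.

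The members and the 55 gene lists were chosen with earlier results of these data known. The rule named Tpt1 and the Fc receptors, the 25 highest and 25 lowest bright and 6 and 6 dim ratios, up to 4 bounds each way, up to 12 calls each way per class, and up to 10 members per list; some that the rule names are not reported here. Alternatives were median scaling, normexp (offset 50) with quantile normalization, the value table, a stricter and no filter, and the mean of all probes. Added after seeing the data were values below background as measured, and the mean of the other PBS arrays as baseline.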

Additional observations from a re-analysis of the deposited data

Results flagged for a closer look

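List medians of the log2 ratio of HRF over PBS went opposite ways in the FcRg KO and FceRIa KO pairs for 2 lists, each by at least 0.5. The genes shared by white and brown fat had a median of -0.87 in the FcRg KO pair and 0.79 in the FceRIa KO pair, and those of fatty acid and triglyceride synthesis -0.74 and 0.57. The difference was not tested, and in the WT pair the medians were 0.01 and -0.01. Against the mean of the other PBS arrays, the FcRg KO PBS array had medians of 0.53 and 0.68 on these lists.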

How the results depend on the processing

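No paired analysis was possible because each group holds 1 array, with no replicate numbers to block on. Genotype, which ties the HRF and PBS arrays of each of the 3 pairs, is a term of the limma fit. The bright counts were the steadier ones: over the scalings, filters and probe rules, bright higher genes numbered between 22 and 34 and bright lower ones between 64 and 106. The counts over all genes, 126 higher and 199 lower, were 27 and 79 after normexp and quantile normalization, 226 and 300 in the authors' value table, 480 and 514 with no filter (run with values below background as measured, since bounds need the flag), and 204 higher with such values and the filter kept. With the mean of the other PBS arrays as baseline, 55 bright genes were higher and 58 lower. The number of genes whose response differed in limma, 0, was 419 with median scaling and 7 after normexp. With the other-PBS baseline, genes entered if well above background on the FcRg KO HRF array or on another PBS array. The list members, and so some medians, therefore differ slightly from those given above against the other PBS arrays. With this baseline the neutrophil granule precursor median turned to -0.14 and the shared fat median was -0.27, while the synthesis median turned to 0.028. The brown fat median was -0.31 with it, against -0.81, and the cardiac median -0.36, against -0.91. Under it the ratios of these genes changed sign: Gpd1 (0.11), Tspo (0.19), Fos (0.061), Gys2 (0.37), Mpo (-0.47), N6amt1 (-0.12), Camp (-0.14), Ngp (-0.21), Rhd (-0.36), Oxct2b (-0.25), Mcpt8 (-0.088), Vmn1r197 (-0.64) and Nrg1 (-0.022). The mean of all probes gave 0.85 for Capn9 and -1.02 for Krt5. The goblet, macrophage, eosinophil, brown fat and cardiac medians kept their sign under every setting run. The cause of these moves was not tested. Dim signals near background and 1 array per group limit every ratio.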
